A study of Mus musculus with 22 samples.

Results

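Mouse epiblast stem cells (mEpiSCs) that were taken out of primed culture and never received an AMPK activator were compared with mEpiSCs kept in the primed state. The members were chosen by their labels alone: 4 cultures of the Oct4GIP line without activator (Basal d8, 2iL d8, Basal d16 and 2iL d16) against 2 primed libraries (Oct4GIP and 129/MSM), which is 6 of the 22 bulk RNA-seq samples in the series. The comparison asks which genes and lineages appear when the factors that hold the primed state are withdrawn and the base medium is changed.

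Oct4GIP is a female (XX) mEpiSC line in which the Oct4 regulatory region drives eGFP and puromycin resistance, and 129/MSM is a male (XY) mEpiSC line from a 129X1/SvJ by MSM/Ms cross. Both lines were maintained with FGF2 and Activin A, Oct4GIP in a serum-free medium and 129/MSM in a medium with serum replacement. The 4 cultures had another base medium, so its change cannot be told apart from the loss of the factors. By the study's methods primed Oct4GIP grew without feeders on fibronectin and 129/MSM on mouse embryonic fibroblast (MEF) feeders, whereas the deposited growth protocol places primed cells on MEFs, so the 2 sources differ for Oct4GIP. For all 4 cultures, Oct4GIP cells were first plated on MEF feeders for a day with FGF2 and Activin A, and then received either Basal medium, which holds serum and serum replacement but neither factor, or the same medium with 2iL, that is LIF, the MEK inhibitor PD0325901 and the GSK3 inhibitor CHIR99021. Cells were collected after 8 or 16 days as whole cultures, so RNA of the feeders and of every derivative is in the library. No combination of line, medium and day was sequenced more than once among the 6 libraries. The p-values below therefore measure the spread between libraries that differ in medium, day or line, which may also hold technical spread. Any difference between media or days, for which each combination has 1 library, is given as values with no test.

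The 6 libraries held between 2396575 and 5290163 gene counts and between 20969 and 24762 genes with at least 1 count. Values are CPM (counts of a gene relative to the library total, scaled by TMM factors), which compare 1 gene across libraries and not the levels of different genes. A count of 3, taken as the floor below which a level was not told from 0, corresponded to 0.557 to 1.24 CPM. The 2 primed libraries did not match each other. Among pluripotency genes, Nanog stood at 256 CPM in primed Oct4GIP and 61.3 CPM in primed 129/MSM. Fgf5 stood at 35.4 and 323 CPM in the same order, while Sox2 was close at 62.2 and 53.2 CPM. Primed 129/MSM carried endoderm genes that primed Oct4GIP lacked: Sox17 stood at 142 against 0 CPM, Cer1 at 759 against 0.388 CPM, and Gata6 at 88.5 against 0.388 CPM. In a bulk sample, fewer cells of a type and less RNA per cell cannot be told apart.

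Primed pluripotency is the state of the epiblast after implantation. Activin and Nodal, acting through SMAD2 and SMAD3, and FGF, acting through ERK, maintain the Oct4 (Pou5f1) network and keep the cells from differentiating. Epiblast cells that lose the Nodal signal commonly turn to neural fates, first as dividing progenitors, then as neurons and later as astrocytes, the glial cells marked by GFAP. Several nuclear receptors act on this exit: NR6A1 (GCNF) and the COUP-TF proteins NR2F1 and NR2F2 bind sites built from the half-site AGGTCA, and the Oct4 promoter is a known target of them.

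The promoters of Pou5f1 and Gfap are shown because they mark the ends of the course in these cultures: Pou5f1 was near 0 in each of the 4 cultures and Gfap was high in the d16 cultures alone. Both are RefSeq sequences of GRCm38.p6, printed 5' to 3' on the strand of the gene, and capitals mark AGGTCA or its reverse complement TGACCT. The Pou5f1 window is chr17:35505782-35506017 (plus strand), just before the annotated gene (chr17:35506018-35510772, GENCODE M21). The Gfap window is chr11:102897201-102897450 (minus strand), upstream of the RefSeq start and within the longer GENCODE gene (chr11:102887336-102900912), outside its exons.
Pou5f1: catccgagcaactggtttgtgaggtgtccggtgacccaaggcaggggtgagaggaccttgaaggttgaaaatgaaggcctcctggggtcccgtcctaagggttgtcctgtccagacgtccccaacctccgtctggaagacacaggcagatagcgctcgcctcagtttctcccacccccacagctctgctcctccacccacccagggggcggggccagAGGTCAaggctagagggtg
Gfap: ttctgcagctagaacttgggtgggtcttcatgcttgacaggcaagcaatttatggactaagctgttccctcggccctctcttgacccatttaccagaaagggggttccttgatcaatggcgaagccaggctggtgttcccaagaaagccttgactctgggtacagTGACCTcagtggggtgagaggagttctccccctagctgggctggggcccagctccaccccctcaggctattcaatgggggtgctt
The match began 33 bases before the RefSeq start of Pou5f1 and 85 bases before that of Gfap. The Pou5f1 window shown holds 236 bases and ends short of the RefSeq start, so the 33 bases run past its last base. The motif was chosen after values had been seen, and 4607 of 32851 promoter windows of 250 bases (14.02%) hold it on either strand, so a match is a description of these letters and not a bound site.

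Of 34489 genes, 15224 passed the filter on low counts. They were tested by the quasi-likelihood method of edgeR, and a gene was called at a Benjamini-Hochberg adjusted p under 0.05. In the cultures 760 genes were higher (4.99% of those tested) and 761 were lower (5.0%), and the median log2 fold change over all genes tested was 0.05. The 4 cultures lay above both primed libraries for 3293 genes (21.6%) and below both for 3560 genes (23.4%). Each of the 760 and 761 called genes was among these non-overlapping ones. The calls needed both primed libraries: without primed Oct4GIP 39 genes were higher and 73 lower, and without primed 129/MSM 41 were higher and 49 lower.

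**Figure D1:**
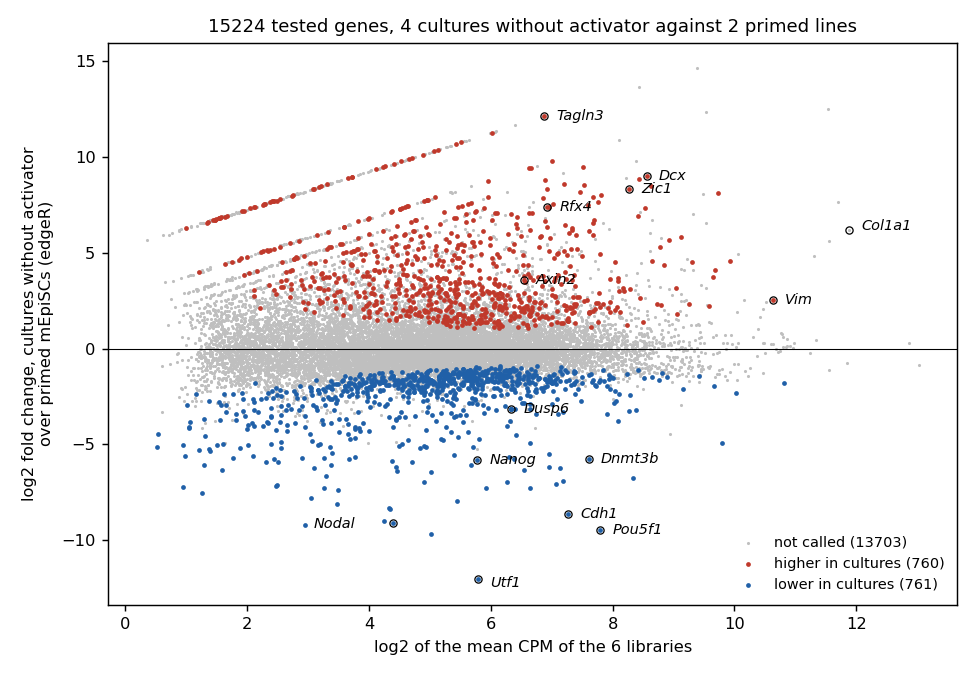
Log2 fold change (cultures without activator over primed mEpiSCs, edgeR) against the log2 mean CPM of the 6 libraries, 1 point per tested gene. Red points are the 760 genes higher in the cultures, blue points the 761 lower ones and grey points the genes not called.

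Pluripotency genes of the epiblast fell. Over all genes tested, 5.0% were lower and 4.99% higher. Of 22 listed genes, 21 were tested, 11 were lower, Sox2 alone was higher, and 9 were not called, with a median log2 fold change of -5.01 over the tested genes against 0.05 over all genes. Pou5f1, the core pluripotency factor, stood at 864 CPM in primed Oct4GIP and 469 CPM in primed 129/MSM. In Basal d8, 2iL d8, Basal d16 and 2iL d16, in this order here and in the values that follow, it stood at 1.35, 0.786, 0.742 and 0.826 CPM. Thus every culture was at or near the floor, and the fall was 9.45 on the log2 scale (SE 0.45, adjusted p = 0.00300), the smallest adjusted p among the named genes. Utf1, a chromatin-associated factor of pluripotent cells (chr7:139943789-139945112), had 222 and 109 CPM in the primed lines and no count in any culture. The primed mean was at least 133-fold higher than the floor of 3 counts in 2iL d16, the culture with the highest floor (adjusted p = 0.0148).

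Nanog, a partner of Oct4, was at 256 CPM in primed Oct4GIP and 61.3 CPM in primed 129/MSM, and at 1.35, 1.97, 2.97 and 4.95 CPM in the cultures. It fell by 5.81 on the log2 scale (SE 0.69, adjusted p = 0.0124), and all cultures lay far below the lower of the primed lines. Fgf5, the classical marker of primed epiblast, was 35.4 and 323 CPM in the primed lines and between 0.338 and 2.48 CPM in the cultures, and fell by 7.29 (SE 0.995, adjusted p = 0.0168). Dnmt3b, the de novo DNA methyltransferase, fell by 5.76 (SE 0.67, adjusted p = 0.0123) from 252 and 878 CPM to between 4.82 and 15.7 CPM. L1td1, an RNA-binding protein of pluripotent cells, fell by 6.95 (SE 0.74, adjusted p = 0.0103). The list held exceptions in both directions. Sox2, which serves both the epiblast and neural progenitors, was 62.2 and 53.2 CPM in the primed lines and 162, 213, 307 and 170 CPM in the cultures, and rose by 1.88 (SE 0.38, adjusted p = 0.0333). Zic2, a zinc finger factor shared by epiblast and neural plate, was 84.8, 45.2, 174 and 63.2 CPM against 120 and 121 CPM, was not called and overlapped the primed lines.

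Other large falls lay outside the list. Eras, an embryonic RAS protein, had 12.8 and 33.4 CPM in the primed lines and no count in a culture, at least 18.6-fold above the floor of 2iL d16 (adjusted p = 0.0275). Trap1a, an X-linked gene known from tumours and placenta, fell from 98.7 and 14.8 CPM to 1 count over the 4 cultures (adjusted p = 0.0124). Where a group held only 1 to 3 counts, the ratio of pooled rates is given with its exact 95% interval for counting error, which for Trap1a was 702 (125 to 27812). Cth, an enzyme of cysteine synthesis, fell from 56.3 and 64.8 CPM (ratio 406, interval 112 to 3365, adjusted p = 0.00617), and Hhex, a homeobox factor of anterior endoderm, from 3.88 and 45.2 CPM (ratio 353, interval 62.4 to 14044, adjusted p = 0.0218). The Hhex counts were mostly those of primed 129/MSM, 141 against 10 in primed Oct4GIP, and without primed 129/MSM Hhex did not enter the fit. Vrtn fell from 22.5 and 96.9 CPM to 2 counts over the cultures (adjusted p = 0.0103). Nr6a1 itself was 116 and 129 CPM in the primed lines and 20.6, 19.3, 23.6 and 11.6 CPM in the cultures, and fell by 2.70 (SE 0.32, adjusted p = 0.0124). Nr2f1 went the other way, from 0.388 and 0.321 CPM to 316, 107, 410 and 269 CPM (ratio 870, interval 241 to 7184, adjusted p = 0.00832). Nr2f2 stood at 0.777 and 12.2 CPM in the primed lines and 302, 109, 301 and 89.99 CPM in the cultures (4.92, SE 1.18, adjusted p = 0.0474). These 3 receptors were picked out after their values were seen.

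The naive pluripotency genes did not come up in place of the primed ones. Of 16 listed genes 6 were tested, and 1 was higher and none lower by edgeR (median log2 fold change 0.81 over these 6). Over all genes tested, 4.99% were higher. Zfp42 (Rex1), the reporter gene of naive cells, was at 0, 0, 0.371 and 0 CPM in the cultures and 0.388 and 0.321 CPM in the primed lines, all below the floor, against 600 CPM in the naive Rex1-GFP library of the series. Dppa5a behaved alike with at most 0.642 CPM in the 6 libraries and 1147 CPM in naive cells. Klf4 stood at 20.3, 8.65, 56.8 and 51.2 CPM against 0.777 and 3.85 CPM without passing the test (adjusted p = 0.0639), and Klf4 is also used by many differentiated cells. The called member was Gbx2, a homeobox gene of naive cells and of the anterior hindbrain, at 12.2, 46.8, 16.3 and 8.67 CPM against 0.777 and 0.321 CPM (ratio 37.6, interval 12.7 to 184, adjusted p = 0.0345). Summed over the list, the cultures held 137, 144, 203 and 166 CPM, the primed lines 93.2 and 131 CPM, and naive cells 5845 CPM.

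**Figure D2:**
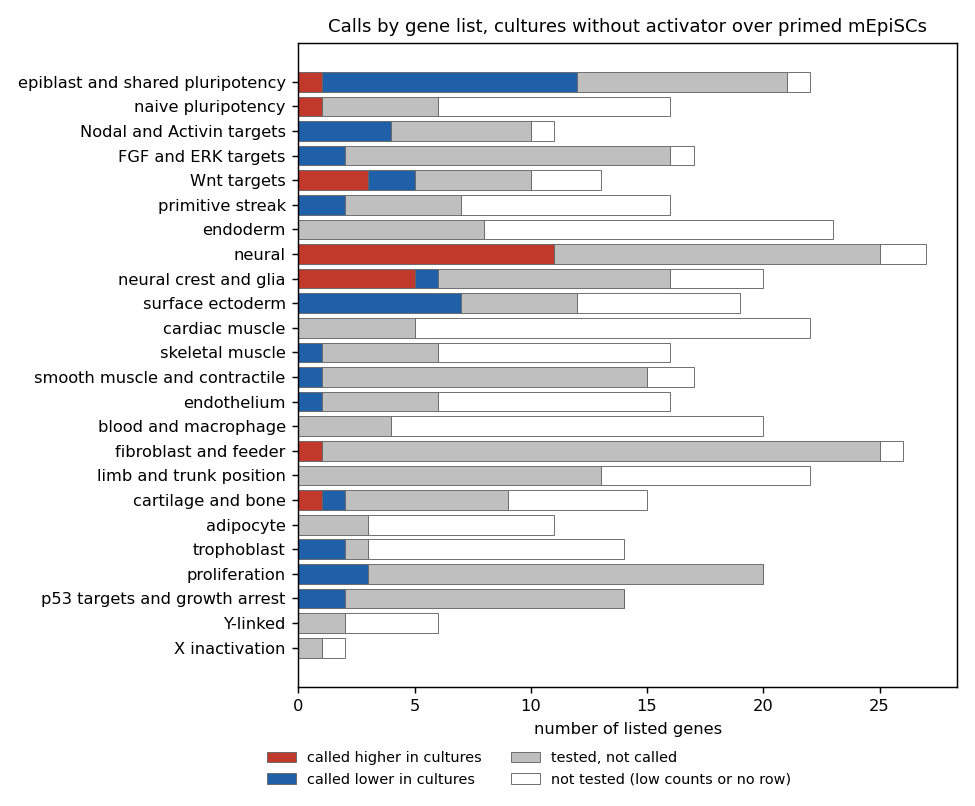
Number of listed genes, by list, that were called higher, called lower, tested but not called, or not tested in the cultures without activator against primed mEpiSCs. The neural list has 11 genes higher and none lower, and the epiblast list 1 higher and 11 lower.

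Neural genes had the most higher calls of the 24 lists. Of 27 listed genes 25 were tested, 11 were higher and none lower by edgeR (median log2 fold change 6.02 over the tested genes), where 4.99% of all genes were higher. For 18 of the 25 the cultures lay above both primed lines, where 21.6% of all genes did. The list summed to 787 and 463 CPM in the primed lines and to 10419, 8047, 8678 and 15564 CPM in the cultures. Gfap alone made up 4441 CPM of the Basal d16 sum and 13397 CPM of the 2iL d16 sum. Without Gfap the cultures summed to 10418, 8045, 4236 and 2168 CPM against 786 and 463 CPM, so 2iL d16 went from the highest culture to the lowest.

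Among the called members were regulators of neural progenitors. Sox1, the early neural plate factor, was 114, 67.6, 41 and 20.6 CPM against 1.55 and 0.321 CPM (log2 fold change 6.02, SE 1.06, adjusted p = 0.0256). Pax6, a progenitor factor of the dorsal and lateral neural tube, was 80.1, 64.1, 81.8 and 33.8 CPM against 1.94 and 0.321 CPM (5.85, SE 0.79, adjusted p = 0.0168). Zic1 (chr9:91358058-91365810), of the dorsal neural tube, was 440, 490, 670 and 242 CPM against 1.17 and 1.60 CPM (8.33, SE 0.70, adjusted p = 0.00617). In each of these 3 genes 2iL d16 was the lowest culture and still lay far above both primed lines. Rfx4, a regulator of cilia and neural patterning (chr10:84756062-84906538), held the most even levels, at 155, 145, 202 and 228 CPM against 1.17 and 0.962 CPM (7.38, SE 0.46, adjusted p = 0.00617). Fabp7, the fatty acid binding protein of radial glia, was 461, 174, 1289 and 459 CPM against 1.94 and 1.28 CPM (8.51, SE 1.18, adjusted p = 0.0176). Pou3f2, a factor of neural progenitors and young neurons, was 318, 285, 86.5 and 35.9 CPM against 0 and 0.962 CPM (ratio 316, interval 108 to 1535, adjusted p = 0.0285). It followed the order of Sox1, with d8 above d16. Other progenitor genes were not called. Hes5, a Notch target, was 75.4, 93.2, 25.8 and 2.06 CPM against no count (adjusted p = 0.0639), close to the floor in 2iL d16, and Sox11 was 1865, 1982, 235 and 128 CPM against 129 and 108 CPM (adjusted p = 0.147), overlapping the primed lines. Sox3, of the epiblast list and of neural progenitors, was 56.1, 52.3, 12.1 and 0.413 CPM against 26.0 and 23.4 CPM (adjusted p = 0.893). Nes, which primed mEpiSCs already express, was also not called, at 361, 340, 91.5 and 152 CPM against 330 and 203 CPM.

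Genes expressed in neurons were partly called. Tagln3, a neuronal relative of transgelin (chr16:45711230-45724608), was not detected in either primed line and stood at 303, 189, 59.9 and 151 CPM in the cultures, on average at least 151-fold above the floor of the shallower primed library (adjusted p = 0.0168). Dcx, a microtubule protein of migrating neurons, was 1162, 872, 156 and 72.2 CPM against 1.17 and 0.962 CPM (9.01, SE 1.75, adjusted p = 0.0310). Map2, the dendritic microtubule protein, was 1301, 660, 494 and 152 CPM against 21.8 and 11.2 CPM (5.31, SE 1.04, adjusted p = 0.0315). In both genes the d8 cultures were the higher. Stmn2, a relative of Stmn4 in neurons, overlapped the primed lines at 232, 167, 85.2 and 71.0 CPM against 159 and 63.8 CPM (adjusted p = 0.742), and Neurod1 was 33.5, 14.9, 3.90 and 0.413 CPM against 5.05 and 3.53 CPM (adjusted p = 0.443). Elavl4 lay above both primed lines in each culture without passing the test (adjusted p = 0.0790). Mapt, which encodes tau, was spread evenly over the days, at 151, 118, 168 and 79.7 CPM against 0.777 and 1.28 CPM (6.90, SE 0.57, adjusted p = 0.00617). Stmn4, a tubulin-binding neuronal protein, had no count in the primed lines and between 30.5 and 100 CPM in the cultures (at least 58.8-fold, adjusted p = 0.0165). Scn3a, a neuronal sodium channel, had none in the primed lines and 66.6, 50.7, 22.6 and 10.7 CPM in the cultures (at least 32.3-fold, adjusted p = 0.0280). Transmitter genes were called as well, though written into a list only after values had been seen: Gad1, which makes GABA (ratio 210, interval 57.9 to 1734, adjusted p = 0.0209), and Slc17a6, which loads glutamate into vesicles (ratio 112, interval 20.003 to 4457, adjusted p = 0.0254). Other large rises were Pantr1 and Hoxaas2, noncoding RNAs beside Pou3f3 and in the Hoxa cluster, and BC024139, Minar2, Tmprss7 and Ccn5. These 6 genes had no count in the primed lines and culture means at least 27.4- to 55.1-fold above the primed floor, with adjusted p between 0.0103 and 0.0477. Hoxaas2 is antisense to Hoxa genes, and its reads were not told from theirs, because the use of strand in the counting is not given in the sources used here. Lrrn3, a neuronal membrane protein, was 74.0, 51.9, 454 and 188 CPM against 1 count in the primed lines (ratio 1390, interval 249.3 to 54923, adjusted p = 0.0240). Pantr1 stood at 87.2, 75.5, 58.8 and 35.5 CPM and Ccn5, a secreted matrix-associated protein, at 19.9, 9.83, 11.9 and 86.3 CPM, both against no count in the primed lines.

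Some genes of the dorsal neural tube and neural crest rose, while Sox10 was not called. Of 20 listed genes 16 were tested, 5 were higher and 1 lower (median log2 fold change 3.17). Over all genes tested, 4.99% were higher and 5.0% lower. Pax3 was 210, 202, 139 and 55.3 CPM against 0.388 and 0 CPM (ratio 862, interval 154 to 34054, adjusted p = 0.0123). Sox9 (log2 fold change 3.83, SE 0.85, adjusted p = 0.0403), Sox8 (ratio 51.9, interval 14.2 to 431, adjusted p = 0.0237) and Tfap2a (ratio 171, interval 47.2 to 1414, adjusted p = 0.0428) rose as well. Sox10, which defines migrating crest and its glia, was 2.37, 3.93, 0.557 and 4.13 CPM against 0.388 and 0.642 CPM and was not called (adjusted p = 0.184). Erbb3, the neuregulin receptor, which mEpiSCs also express, fell by 4.10 (SE 0.90, adjusted p = 0.0391).

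The cultures were not alike at the 2 collection days. For 17 of the 25 tested neural genes both d8 cultures lay above both d16 cultures, where 32.3% of all genes did so, and 2 genes had the reverse order, where 34.4% of all genes did. Elavl3, an RNA-binding protein of young neurons, was 665 and 453 CPM at d8 and 89.1 and 38.8 CPM at d16, and Tubb3, neuronal tubulin, was 1338 and 755 CPM at d8 and 123 and 107 CPM at d16. All 4 cultures lay above the primed lines, at 5.83 and 5.77 CPM for Elavl3 and 20.6 and 13.5 CPM for Tubb3, without passing the test (adjusted p = 0.0532 and 0.0622). Dll1, the Notch ligand of newborn neurons, was 328 and 382 CPM at d8 and 16.9 and 4.13 CPM at d16, where the primed lines were 26.0 and 13.2 CPM. Ranked over all genes by the smaller of the differences in the 2 media, Robo3, a receptor of commissural axons, led the genes higher at d8, at 1345 and 719 CPM against 10.8 and 3.72 CPM. Ebf2, Scrt2, Th and Lhx5 were also among the first 12 of that ranking, as was Nhlh2, a factor of postmitotic neurons, at 1079 and 538 CPM at d8 and 30.1 and 9.08 CPM at d16. At least 4-fold higher at d8 in both media were 268 genes (1.76%).

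At d16 the ranking was led by genes of astrocytes, and 784 genes (5.15%) were at least 4-fold higher at d16 in both media. Gfap, the intermediate filament of astrocytes, was 1.01 and 2.75 CPM at d8 and 4441 CPM in Basal d16 and 13397 CPM in 2iL d16. In the primed lines it was 1.17 and 0.321 CPM. The comparison of the 4 cultures with the primed lines did not call it (log2 fold change 12.52, SE 4.91, adjusted p = 0.135), and the d8 cultures lay at the primed level. Aqp4, the water channel of astrocyte endfeet, was 13.5 and 5.90 CPM at d8 and 1935 and 2509 CPM at d16 (adjusted p = 0.0881). Hepacam, a glial adhesion protein, rested on 0 and 0.393 CPM at d8 and stood at 216 and 166 CPM at d16, and Agt, angiotensinogen, which astrocytes make in the brain, at 66.6 and 176 CPM from no count at d8. Serpina3n and C4b, genes of reactive astrocytes and of inflammation, were 218 and 1775 CPM and 421 and 1372 CPM at d16. The glutamate transporter Slc1a2 differed from these genes in being high at both days, at 209, 289, 467 and 190 CPM against 1.17 and 1.92 CPM, and rose by a log2 fold change of 7.49 (SE 0.68, adjusted p = 0.00693). Summed over the 16 astrocyte genes, which were listed after values had been seen, the levels were 446 and 578 CPM at d8 and 15692 and 26883 CPM at d16. In primed Oct4GIP and primed 129/MSM these genes summed to 1371 and 839 CPM, above both d8 cultures. Genes of oligodendrocytes, the myelin-forming glia, were mixed. Their 7 genes, also listed after values had been seen, summed to 49.7 and 57.4 CPM at d8 and 262 and 218 CPM at d16, most of it Cnp. The primed lines held 79.3 and 124 CPM of them, above both d8 cultures. Olig2, which marks their precursors and motor neuron progenitors, was 7.10, 0.393, 5.75 and 3.30 CPM, and Cnp, a myelin enzyme, was 9.80 and 10.2 CPM at d8 and 207 and 167 CPM at d16, while Mbp, the main myelin protein, lay between 21.1 and 38.9 CPM beside 16.3 and 28.9 CPM in the primed lines.

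Basal and 2iL cultures differed at genes of position along the body axis. Hox genes are expressed in nested domains from the hindbrain to the tail, and Otx2 marks forebrain and midbrain. All 15 Hox genes of the list of limb and trunk position were higher in both 2iL cultures than in both Basal cultures. Of these, 12 were tested, and all 12 had this order, where 9.18% of all genes tested did. Hoxb9, of the trunk, was 258 CPM in 2iL d8 and 21.1 CPM in 2iL d16 against 3.04 and 2.04 CPM in Basal d8 and d16, and 0 and 3.21 CPM in the primed lines. Hoxd3 was 101 and 12.8 CPM in 2iL and 0.338 and 0.186 CPM in Basal, both below the floor. Hoxa5, of the neck and upper trunk, was 43.3 and 26.0 CPM in 2iL and 0.338 and 0.371 CPM in Basal. With Basal cultures at the primed level, none of the 13 tested members of the list was called in either direction by edgeR (median log2 fold change 4.39), and 3 lay above both primed lines in all cultures, where 21.6% of all genes did. Hoxa2, of the hindbrain, was shared by the media at 108, 60.9, 55.3 and 25.6 CPM against 0.388 and 0.642 CPM, and rose (ratio 119, interval 40.6 to 579, adjusted p = 0.0148).

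Both Basal cultures lay above both 2iL cultures for 9.57% of all genes. Otx2 was one, at 14.2 and 111 CPM in Basal d8 and d16 and 1.18 and 1.65 CPM in 2iL, with 88.2 and 405 CPM in the primed lines. Dmbx1, of the midbrain, was 51.4 CPM in Basal d8 and 1.18 CPM in 2iL d8, and Olig3, of the dorsal hindbrain and spinal cord, 61.2 and 0.393 CPM. A list of 19 genes of head and hindbrain position, made after values had been seen, did not share this order as a sum. It held 352 and 244 CPM in Basal d8 and d16, 503 and 237 CPM in 2iL, and 101 and 433 CPM in the primed lines. A few genes of the choroid plexus, the epithelium that makes cerebrospinal fluid, were highest in Basal d16. In Basal d8, 2iL d8, Basal d16 and 2iL d16, 13 choroid plexus and roof plate genes summed to 297, 289, 5784 and 1046 CPM. The primed lines held 855 and 1175 CPM, and these 13 genes, with Otx2 among them, were listed after values had been seen. Ttr, transthyretin, which choroid plexus and liver secrete, was 3997 CPM in Basal d16 and 3.04, 0 and 9.91 CPM in Basal d8, 2iL d8 and 2iL d16. Kcnj13 was 13.2 CPM and Sspo, of the subcommissural organ and roof plate, 79.6 CPM in Basal d16, against at most 4.54 CPM in the other cultures. Ttr is also in the endoderm list, whose summed level in Basal d16 was 4233 CPM. At least 4-fold higher in 2iL at both days were 51 genes (0.335%) and in Basal 40 genes (0.263%), and of the first 12 in the 2iL ranking 9 were Hox genes.

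**Figure D3:**
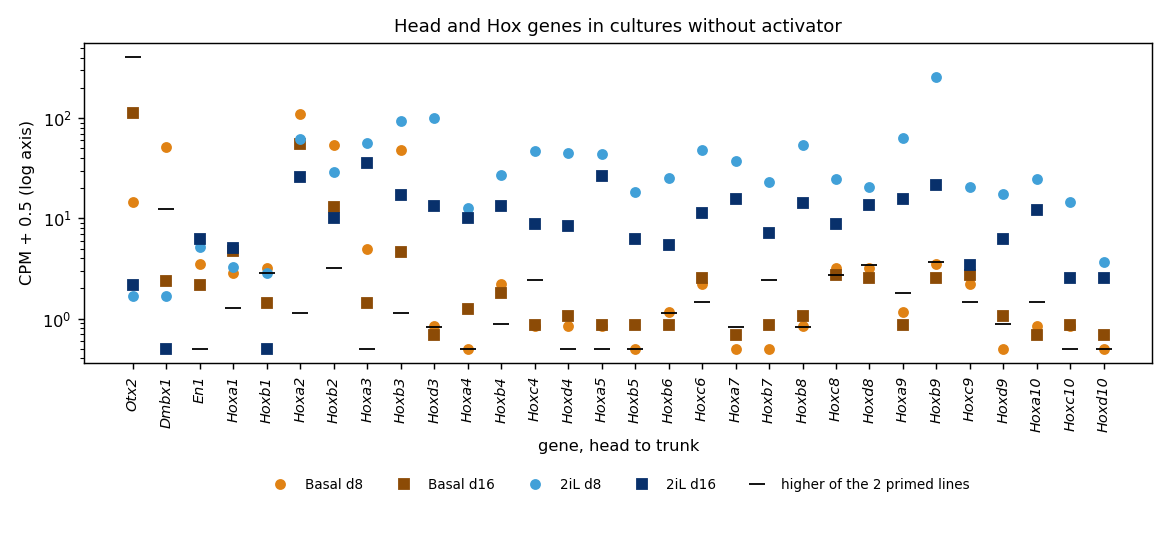
CPM + 0.5 on a log axis for Otx2, Dmbx1, En1 and Hox genes in the 4 cultures without activator, with a black dash for the higher of the 2 primed lines. Hoxb9 lies at 258 CPM in 2iL d8 and 3.04 CPM in Basal d8, and Otx2 at 111 CPM in Basal d16 and 1.65 CPM in 2iL d16.

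The signals withdrawn from the medium were followed through their target genes. Of 11 Nodal and Activin genes 10 were tested, 4 were lower and none higher by edgeR (median log2 fold change -2.17). Among all genes tested, 5.0% were lower. Nodal, the ligand (chr10:61417972-61425338), was 56.3 and 69.0 CPM in the primed lines and 0.338, 0, 0 and 0 CPM in the cultures, and fell (ratio 842, interval 150.2 to 33356, adjusted p = 0.00617). Lefty1, its feedback inhibitor, was 164 and 425 CPM and then 0, 2.75, 1.11 and 4.13 CPM, and fell by 7.26 (SE 0.95, adjusted p = 0.0161). Tdgf1, the Nodal co-receptor, fell by 6.22 (SE 1.32, adjusted p = 0.0367), with 2iL d16 at 19.8 CPM above the other cultures at 0.676, 0.393 and 1.86 CPM. Foxh1, the partner of SMAD2, which is in no list, fell by 7.96 (SE 0.98, adjusted p = 0.0136). More general SMAD targets held their levels more closely: Skil was 195, 153, 68.6 and 57.0 CPM against 139 and 273 CPM (adjusted p = 0.361).

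Of 17 FGF and ERK genes 16 were tested, 2 were lower and none higher by edgeR (median log2 fold change -0.58). Among all genes tested, 5.0% were lower. Dusp6, a phosphatase induced by ERK, was 284 and 114 CPM in the primed lines and 22.3, 9.44, 43.8 and 12.4 CPM in the cultures, and fell by 3.16 (SE 0.66, adjusted p = 0.0349). The level in 2iL, which holds the MEK inhibitor, was below that in Basal at each day. Fgf8, a ligand of the primitive streak, fell from 6.99 and 59.0 CPM to 1 count over the cultures (ratio 473, interval 83.9 to 18756, adjusted p = 0.0209). Etv4 showed the same order of media, at 3.04 and 41.4 CPM in Basal and 0 and 9.49 CPM in 2iL (adjusted p = 0.225). Phlda1 and Ier3 had the reverse order of media and did not pass the test. Phlda1 was 42.2 and 21.3 CPM in Basal d8 and d16 and 80.6 and 54.9 CPM in 2iL, against 1.17 and 19.2 CPM in the primed lines (log2 fold change 2.26, adjusted p = 0.175). Ier3 was 4.73 and 66.2 CPM in Basal and 13.4 and 323 CPM in 2iL against 6.60 and 19.9 CPM (2.93, adjusted p = 0.273). Egr1, an immediate early gene, was 268, 92.0, 1266 and 585 CPM against 3.11 and 112 CPM (3.26, adjusted p = 0.200). The list summed to 773, 482, 1966 and 1256 CPM in the cultures and 1105 and 1035 CPM in the primed lines.

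Of 13 Wnt targets 10 were tested, 3 were higher and 2 lower (median log2 fold change 1.59). Among all genes tested, 4.99% were higher and 5.0% lower. Axin2, the feedback inhibitor of the pathway, was 13.6 and 8.66 CPM in the primed lines and 105, 80.2, 200 and 149 CPM in the cultures, a rise of 3.59 (SE 0.52, adjusted p = 0.0183). Nkd1 (3.41, SE 0.59, adjusted p = 0.0247) and Apcdd1 (4.30, SE 0.54, adjusted p = 0.0143), also inhibitors of Wnt signalling, rose with it. For Axin2, the Basal cultures, which lack the GSK3 inhibitor, lay above the 2iL cultures of the same day. Tcf7 fell by 2.44 (SE 0.41, adjusted p = 0.0236) and Lef1 by 1.74 (SE 0.31, adjusted p = 0.0266), which are among the transcription factors through which the signal acts.

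Few streak and endoderm genes were called, where 4.99% of all genes tested were higher and 5.0% lower. Of 16 primitive streak genes 7 were tested, 2 were lower and none higher by edgeR (median log2 fold change -1.24). Eomes was 12.4 and 151 CPM in the primed lines and 2.70, 0, 4.08 and 1.65 CPM in the cultures, and fell by 5.16 (SE 1.15, adjusted p = 0.0412). Without primed 129/MSM its log2 fold change was -2.45 and was not called. T (Brachyury) was 4.27 and 25.0 CPM and then 2.03, 8.26, 1.67 and 3.30 CPM, overlapping primed Oct4GIP (adjusted p = 0.171). The list summed to 352, 106, 49.2 and 17.3 CPM in the cultures and 78.9 and 653 CPM in the primed lines, with Lhx1 at 310 CPM in Basal d8. Of 23 endoderm genes 8 were tested and none was called in either direction by edgeR (median log2 fold change -0.36). They summed to 163, 106, 4233 and 323 CPM in the cultures, above the 67.6 CPM of primed Oct4GIP and, except in Basal d16, below the 911 CPM of primed 129/MSM. Ttr made up 3997 CPM in Basal d16, Cxcr4 139 CPM in Basal d8, and Fgb 70.6 CPM in 2iL d16, and Dab2 stood at 119 and 150 CPM at d16. Sox17 had no count in any culture. Foxa2 stood at 0.186 to 0.676 CPM against 3.50 and 71.5 CPM in the primed lines, and Gata6 at 0, 0, 0.186 and 6.19 CPM, where the primed level of 88.5 CPM was that of 129/MSM alone.

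Epithelial genes fell without keratinocyte genes appearing. Of 19 surface ectoderm genes 12 were tested, 7 were lower and none higher by edgeR (median log2 fold change -4.41), where 5.0% of all genes were lower. Cdh1, E-cadherin (chr8:106603351-106670246), was 167 and 755 CPM in the primed lines and 0.676, 0.786, 1.30 and 1.65 CPM in the cultures, and fell by 8.65 (SE 0.72, adjusted p = 0.00617). Epcam, an adhesion protein of epithelia, fell by 5.63 (SE 0.53, adjusted p = 0.00763), and Grhl2, a regulator of epithelial genes, fell by 4.46 (SE 0.56, adjusted p = 0.0143). Esrp1, the epithelial splicing factor, which is in no list, fell from 58.3 and 135 CPM to 1 count over the cultures (ratio 1333, interval 238 to 52760, adjusted p = 0.00640). Krt19 (-5.92), Perp (-4.35), Dsp (-4.74) and Grhl3 (-4.98) completed the calls, with adjusted p between 0.0214 and 0.0270. Without primed 129/MSM the log2 fold change of Krt19 was -3.33 and was not called. These genes also serve the epithelial epiblast itself. Krt14 and Trp63, which define keratinocytes, were at most 0.742 and 0.186 CPM in the cultures, at or near the floor.

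Other lineages gave few calls, where 4.99% of all genes tested were higher and 5.0% lower. Of 22 cardiac genes 5 were tested and none was called by edgeR (median log2 fold change -1.07), and Myh6 and Tnnt2 stayed at or below 2.48 CPM in the cultures. Of 16 skeletal muscle genes 6 were tested and 1 was lower (median 0.72), and that 1 gene, Des, was also the single call among 15 tested of 17 smooth muscle genes (median 1.04), where it fell by 4.34 (SE 0.84, adjusted p = 0.0307). Acta2, smooth muscle actin, was 164, 132, 153 and 490 CPM in the cultures against 3.88 and 96.6 CPM (adjusted p = 0.240), and Myog was under the floor in all 6 libraries. Myh8, a perinatal myosin, was 50.3 CPM in Basal d16 and 10.3 CPM in 2iL d16 from under 1 CPM at d8. Of 16 endothelial genes 6 were tested and 1 was lower (median 0.05). That gene was Flt1, a VEGF receptor, which fell by 6.33 (SE 1.28, adjusted p = 0.0333) from 8.55 CPM in primed Oct4GIP and 539 CPM in primed 129/MSM to 2.48 to 4.33 CPM in the cultures. Without primed 129/MSM its log2 fold change was -1.29 and was not called. Kdr was 10.8, 5.90, 82.9 and 26.4 CPM against 0.388 and 1.60 CPM (adjusted p = 0.0738), and Cdh5, which defines endothelium, was at most 5.78 CPM. Of 19 matched blood and macrophage genes 4 were tested and none was called by edgeR (median -0.45), with Ptprc near the floor. Of 13 matched trophoblast genes 3 were tested and 2, Ascl2 and Eomes, were lower (median -5.16). Of 10 matched adipocyte genes 3 were tested and none was called by edgeR (median 3.55), and Fabp4 was 128 CPM in 2iL d16 and under 1 CPM in the other cultures. Of 15 cartilage and bone genes 9 were tested (median 1.87), with Cnmd higher (no count in the primed lines, at least 8.55-fold, adjusted p = 0.0412) and Matn1 lower (ratio 50.3, interval 13.1 to 429, adjusted p = 0.0271).

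Fibroblast genes summed to higher levels in each culture than in either primed line, with 2iL d16 far above the rest, and mostly did not pass the test. Primed 129/MSM, kept on feeders, held them too, and why they were not called was not tested. Of 26 listed genes 25 were tested, and 1 was higher and none lower by edgeR (median log2 fold change 2.87). Over all genes tested, 4.99% were higher. For 14 of the 25 the cultures lay above both primed lines, against 21.6% of all genes. Vim, the called gene, which neural progenitors and fibroblasts both express, was 303 and 439 CPM in the primed lines and 1873, 1779, 2005 and 3098 CPM in the cultures (2.56, SE 0.46, adjusted p = 0.0265). Col1a1, the main fibrillar collagen (chr11:94936224-94953042), was 7.38 CPM in primed Oct4GIP, 144 CPM in primed 129/MSM and 1362, 1308, 2299 and 17514 CPM in the cultures (6.21, SE 2.04, adjusted p = 0.0923). Col3a1 was 0.777 and 49.1 CPM and then 333, 730, 991 and 17932 CPM (adjusted p = 0.119), so both collagens ranked 2iL d16 far above the other cultures. Dcn, a proteoglycan that defines stromal fibroblasts, moved less, at 37.9, 33.4, 64.4 and 119 CPM against 0.777 and 44.9 CPM (adjusted p = 0.429). Prrx1, a mesenchymal factor, was 20.6, 24.8, 43.8 and 222 CPM against 0 and 22.1 CPM.

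The feeder share of these values could be read only in part. Of the 26 genes, 19 in Basal d8, 16 in 2iL d8, 21 in Basal d16 and 25 in 2iL d16 exceeded the level of primed 129/MSM, with median ratios of 1.63, 1.33, 2.64 and 11. Primed Oct4GIP lay below 129/MSM for 23 of 26, with a median ratio of 0.0450. The list summed to 734 and 3367 CPM in the primed lines and to 7430, 6763, 10286 and 68066 CPM in the cultures. Y-linked genes give another reading, because the Oct4GIP line is XX, although the sex of the feeders is not stated. Ddx3y had no count in primed Oct4GIP, 379 counts in the XY line 129/MSM and 11, 6, 7 and 2 counts in the cultures, or 3.06, 1.94, 1.07 and 0.679% of the 129/MSM level in CPM. Eif2s3y had 0, 264, 3, 3, 6 and 1 counts. Both genes had their fewest counts in 2iL d16, the culture with the most collagen, although counts this low carry a wide counting error. Uty and Kdm5d, which have close copies on the X chromosome, had 5 counts each in primed Oct4GIP and were not read in this way. Of 6 Y-linked genes 2 were tested and none was called by edgeR (median log2 fold change -3.80). Xist, the RNA of the inactive X chromosome, was 637 CPM in primed Oct4GIP, 20.9 CPM in 129/MSM and 706, 1098, 683 and 621 CPM in the cultures, and was the tested member of 2 X inactivation genes, not called (log2 fold change 1.24). The part of feeders in the fibroblast values was not tested beyond these counts, and fibroblast-like cells derived from Oct4GIP and female feeder cells cannot be told apart by them.

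**Figure D4:**
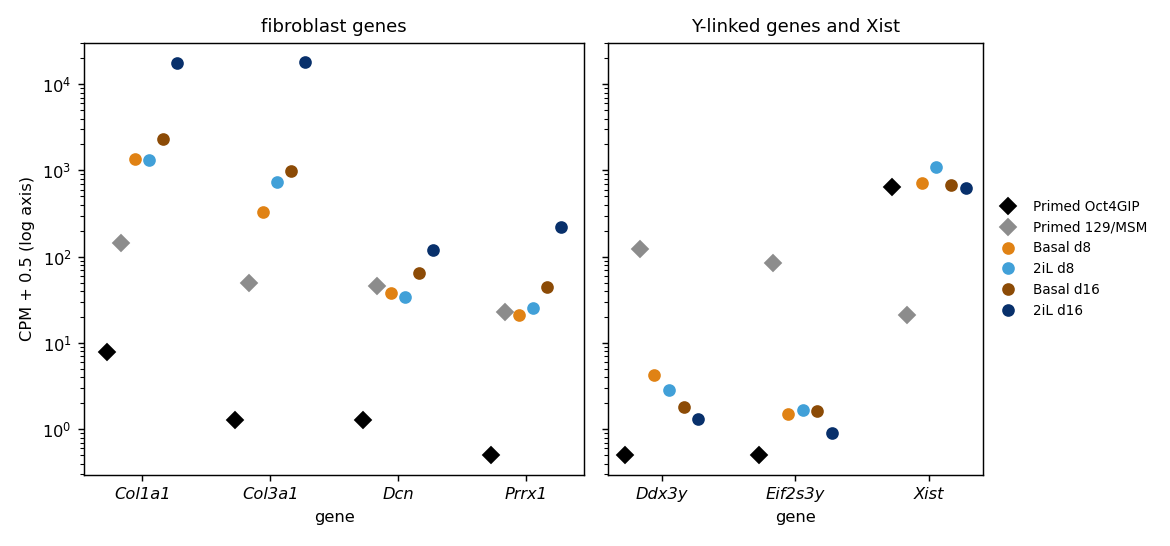
CPM + 0.5 on a log axis for the fibroblast genes Col1a1, Col3a1, Dcn and Prrx1 (left) and for Ddx3y, Eif2s3y and Xist (right) in the 6 libraries, diamonds for primed lines and circles for cultures. Col1a1 reaches 17514 CPM in 2iL d16, where Ddx3y has 0.826 CPM against 122 CPM in primed 129/MSM.

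A few cell cycle genes fell, where 5.0% of all genes tested were lower. Of 20 proliferation genes all 20 were tested, 3 were lower and none higher by edgeR (median log2 fold change -1.57), and for 16 the cultures lay below both primed lines, where 23.4% of all genes did. Cdk1, the mitotic kinase, was 130 and 140 CPM in the primed lines and 51.7, 65.7, 33.6 and 48.3 CPM in the cultures, and fell by 1.44 (SE 0.31, adjusted p = 0.0368). Bub1 fell by 2.59 (SE 0.62, adjusted p = 0.0482) and Mcm4 by 1.59 (SE 0.36, adjusted p = 0.0416). Mki67 was 173, 276, 97.8 and 91.6 CPM against 425 and 296 CPM (adjusted p = 0.154). For 19 of the 20 both d16 cultures lay below both d8 cultures, where 32.3% of all genes did. Of 14 p53 and growth arrest genes all were tested, 2 were lower and none higher by edgeR (median -1.05): Mdm2 (-1.38, SE 0.27, adjusted p = 0.0316) and Ccng1 (-1.46, SE 0.34, adjusted p = 0.0441). Cdkn1a, the arrest gene p21, was 143, 355, 106 and 156 CPM against 259 and 203 CPM (adjusted p = 0.730).

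The 4 Oct4GIP cultures that received the AMPK activator AICAR or AICAR+LIF were set beside these, with no test because each is 1 library. In the order AICAR d8, AICAR+LIF d8, AICAR d16 and AICAR+LIF d16, Pou5f1 was 14.5, 37.5, 3.73 and 21.4 CPM, above each culture without activator at the same day. Nanog was 23.1, 79.1, 4.35 and 28.9 CPM, and Lefty1 142, 360, 10.9 and 128 CPM. The AICAR+LIF cultures were the higher at both days for these 3 genes, and the Nanog level of AICAR d16 lay within that of the cultures without activator. The neural list summed to 3246, 2612, 4256 and 3989 CPM, below each culture without activator. Without Gfap they summed to 3246, 2610, 1845 and 1703 CPM, below the cultures without activator of the same day, while both d8 sums lay above 2iL d16. Gfap followed the same days as without activator, at 0, 2.08, 2411 and 2285 CPM. The keratinocyte gene Krt14, at or near the floor without activator, was 53, 91.6, 4.66 and 3.38 CPM, and Krt5 78.1, 131, 7.46 and 3.75 CPM. Cdh5 was 156 CPM in AICAR d16 alone, at 0, 0 and 3.38 CPM in the other 3 AICAR cultures and at most 5.78 CPM in the cultures without activator. Fibroblast genes summed to 9894, 9999, 26957 and 31706 CPM. The d8 libraries with AICAR were shallower, at 956357 and 438771 counts, where 3 counts correspond to 2.89 and 6.24 CPM.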

How the data were processed

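Whole-culture mRNA was measured by bulk RNA-seq. The values used are raw gene counts as the authors deposited them: single reads from a stranded library kit were aligned with Bowtie2 2.2.5 to Ensembl GRCm38 transcripts and kept at a mapping quality of at least 1. Whether strand was used in counting is not given in the sources used here, so antisense pairs such as Xist and Tsix cannot be told apart. The column headed only as primed mEpiSCs was taken as Oct4GIP, since the other primed column names 129/MSM. Transcript counts and the table of detected genes were not used.

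The 4 cultures and 2 primed libraries were fitted alone in edgeR 4.0.16 (R 4.3.3) with TMM factors, filterByExpr and the quasi-likelihood test. SE is the log2 fold change divided by the square root of F. Named genes were the 12 with the largest fold change in each direction (mean CPM of at least 20 in the higher group, groups not overlapping, no predicted genes), up to 4 called members per list, and fixed markers. The comparison, the 24 lists (405 entries, 3 without a row in the table) and the rules were chosen with earlier results of these data known. A further 5 lists, the rankings by day and medium (at least 30 CPM) and the genes said to be picked afterwards were chosen after values were seen. The script was tested on simulated data. Intervals and floors cover counting error only. Alternatives used DESeq2 1.42.0, limma 3.58.1, other filters and subsets. Some genes of the lists are counted in them but not reported here by name.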

Additional observations from a re-analysis of the deposited data

Results flagged for a closer look

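Among 61 named genes examined over the 4 cultures without activator, 5 had a library far from the other 3 by Dixon's test. Chance sets apart about 1 in 20 groups. Pou5f1 stood at 1.35 CPM in Basal d8 and at 0.742 to 0.826 CPM in the others, all at or near the floor. Nkd1, a Wnt inhibitor, was 67.2 CPM in 2iL d8 and 101 to 106 CPM in the others. Erbb3 had 0 counts in Basal d8 and 3.54 to 5.57 CPM in the others. Gata6, a factor of endoderm and mesoderm, was 6.19 CPM in 2iL d16 and 0, 0 and 0.186 CPM in the others. Acta2 was 490 CPM in 2iL d16 and 132 to 164 CPM in the others.

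In a library outside the comparison, the naive Rex1-GFP cells, Y-linked Ddx3y stood at 96.9 CPM and Eif2s3y at 97.2 CPM, with Xist at 0.982 CPM, although the study's list of lines gives Rex1-GFP as XX. Primed Oct4GIP, also given as XX, had 0 counts of both Y-linked genes and 637 CPM of Xist.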

How the results depend on the processing

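The count of genes depended on which primed libraries and cultures entered. Leaving out 1 library gave 39 to 893 genes higher and 49 to 471 lower, against 760 and 761. Without primed Oct4GIP the counts were 39 and 73, and without primed 129/MSM 41 and 49. Without Basal d8 they were 253 and 107, without 2iL d8 383 and 259, without Basal d16 381 and 201, and without 2iL d16 893 higher and 471 lower. With the d8 cultures alone 1659 were higher and 972 lower, with d16 alone 1631 and 961, with Basal alone 256 and 70, and with 2iL alone edgeR called 0 and 0, with 2593 genes at an unadjusted p under 0.05. DESeq2 called 2288 higher and 1417 lower, limma voom 337 and 578, and the fit of all 22 libraries 3421 and 3126. RLE factors (772 and 656), no factors (658 and 668), no filter (1102 and 625), a minimum of 10 counts (583 and 604) and thinning (748 and 740) stayed within 1.5 times. The share of calls that were higher, 50.0% in the comparison as reported, moved by more than 10 points under DESeq2 (61.8%), limma (36.8%), no filter (63.8%), d8 alone (63.1%), d16 alone (62.9%) and Basal alone (78.5%), and on leaving out primed Oct4GIP (34.8%), Basal d8 (70.3%), Basal d16 (65.5%) or 2iL d16 (65.5%). Of 71 named genes in the fit 60 were called, and all 60 kept their sign in each of the 18 alternatives that gave them a value (15 to 18 a gene), while 0 were called in each one, 2iL alone calling none by edgeR. Leaving out 1 library ended the call of 9 (2iL d16) to 47 (primed 129/MSM) of them. Without primed 129/MSM, the log2 fold change moved by over 1.5 times for Flt1 (-1.29), Eomes (-2.45), Krt19 (-3.33) and Lefty2 (-3.76). Among named genes not called, the log2 fold change changed sign for Cdkn1a with d8 alone (0.20) and 2iL alone (0.22), for Gata6, whose fits without 1 library ranged from -5.90 to 1.87, and for Ddx3y, from -5.87 to 5.75, both positive only without primed 129/MSM. For the other differences the cause was not tested. No paired analysis was possible because the labels carry no replicate numbers and each library has its own line, medium and day. Low depth limited genes near 3 counts, such as the Y-linked ones.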
